A study of Mus musculus with 8 samples.

Results

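Erythropoietin receptor signaling was followed through 10 genes in E14.5 fetal livers of Eklf knockout (KO) and wild-type (WT) mouse embryos. The members were the receptor Epor, the kinases Jak2 and Lyn, the transcription factors Stat5a and Stat5b, and 5 genes known to be induced through STAT5 or to hold the signal back: Cish, Socs1, Socs2, Socs3 and Pim1. Every probe set whose single gene symbol in the platform annotation was a member was taken, which gave 20 of the 45101 probe sets on the array and 9 of the 18193 named genes. Lyn was not analysed here. Of the 20 probe sets, 15 reached a mean signal of 100 in KO or in WT and were tested. These belong to 8 members. The probe set of Socs1 and 4 of the 6 probe sets of Socs2 did not reach it.

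The KO livers came from 4 embryos homozygous for a knockout of Eklf (gene symbol Klf1), made in B6 mice with an engineered Eklf locus carried on a BAC and E2A-Cre mice, a Cre active in the early embryo. The WT livers came from 4 embryos with Eklf intact, at the same stage. None received a treatment or was cultured. RNA of whole liver was measured, 1 array for each sample. KO arrays carry the replicate numbers 2 to 5 and WT arrays 1 to 4. All KO titles share 1 sample code and all WT titles share another, so anything that went with those codes cannot be told apart from genotype. The labels do not say whether the embryos came from separate litters, so the p-values measure the spread between these samples.

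Erythropoietin is the hormone that keeps erythroid progenitors alive and dividing, and the fetal liver is where red cells are made at this stage. On binding, its receptor brings the attached kinase JAK2 into action, JAK2 phosphorylates the receptor tail, and STAT5A and STAT5B dock there, are phosphorylated and move to the nucleus. Among the genes STAT5 switches on are Cish and the Socs genes, whose products bind the receptor or the kinase and shut the signal down, and Pim1, a serine/threonine kinase that favours survival. EKLF is an erythroid transcription factor that binds CACCC boxes and acts on globin, membrane and heme genes.

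The RefSeq promoter windows (GRCm38.p6, 250 bases before to 50 bases after the gene start) show the motifs through which these members are usually discussed. Windows were found for 8 members, 11 windows in all, and none for Socs2 or Lyn, which were therefore not searched. They were searched on both strands for TTCNNNGAA, the form bound by STAT5, for CACCC, and for the GATA form AGATAA, with G also allowed as the last base and T as the first. No letters of a motif overlap those of another in the windows printed. The windows of 3 members are shown, those of the receptor and of the only members whose window held TTCNNNGAA, with motif letters in capitals. Epor lies at chr9:21963577-21963826 on the minus strand, Cish at chr9:107296409-107296688 on the plus strand and Socs3 at chr11:117969367-117969616 on the minus strand. The Epor and Socs3 runs are the 250 bases before the start, and the Cish run is these 250 bases with the first 30 of the transcript.
Epor: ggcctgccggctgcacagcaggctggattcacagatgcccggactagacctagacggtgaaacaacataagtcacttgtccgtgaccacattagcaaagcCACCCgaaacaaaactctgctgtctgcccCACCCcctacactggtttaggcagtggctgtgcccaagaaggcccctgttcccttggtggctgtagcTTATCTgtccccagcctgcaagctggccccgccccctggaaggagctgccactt
Cish: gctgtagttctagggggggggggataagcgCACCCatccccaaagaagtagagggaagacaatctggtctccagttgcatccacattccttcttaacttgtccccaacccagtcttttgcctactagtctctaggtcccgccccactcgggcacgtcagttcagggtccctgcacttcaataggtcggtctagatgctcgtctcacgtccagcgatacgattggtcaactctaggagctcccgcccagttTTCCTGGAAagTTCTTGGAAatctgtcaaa
Socs3: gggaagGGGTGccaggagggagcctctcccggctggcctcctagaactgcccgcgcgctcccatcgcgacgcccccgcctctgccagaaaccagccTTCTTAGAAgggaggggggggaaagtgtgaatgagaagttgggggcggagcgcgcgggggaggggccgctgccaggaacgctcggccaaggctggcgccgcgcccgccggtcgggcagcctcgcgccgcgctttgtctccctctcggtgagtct

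In the Epor window CACCC began 150 and 121 bases before the start and a GATA form, printed as TTATCT because it reads on the opposite strand, began 54 bases before it. Cish carried TTCCTGGAA from base 1 of the transcript and TTCTTGGAA from base 12, and CACCC 220 bases before the start. Socs3 carried TTCTTAGAA 154 bases before the start and CACCC on the opposite strand 244 bases before it. TTCNNNGAA was found in 2 of the 11 member windows and in 8.30% of all 32851 windows of the same length, CACCC in 8 of 11 and in 57.5% of all windows, and a GATA form in 1 of 11 and in 29.8% of all windows. A match is a run of letters and not a measured binding site.

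Signals are MAS5.0 intensities on a linear scale, and differences are KO minus WT on the log2 scale. A probe set was called when limma's p, adjusted by Benjamini-Hochberg over 23379 tested probe sets, was under 0.05. Each array had the same trimmed mean (500.003 to 500.004), but the median signal was 96.7 to 114 in KO arrays and 79.5 to 84.1 in WT arrays. Pearson correlations between arrays were 0.956 to 0.978 among KO arrays and 0.974 to 0.978 among WT arrays. Between a KO and a WT array they were 0.859 to 0.908. Among KO arrays, replicates 2 and 4 correlated at 0.978 and replicates 3 and 5 at 0.977. The other pairs of KO arrays gave 0.956 to 0.962. Klf1 had signals of 1798, 1513, 1606 and 1543 in KO replicates 2 to 5, against 16860, 14993, 16151 and 15328 in WT replicates 1 to 4, a fall of every KO array below every WT array. Whether its probe set lies inside the engineered part was not stated in the labels or methods. KO replicates 3 and 5 stood apart from KO replicates 2 and 4 in the heat shock gene Hspa1b, with signals of 8656 and 7798 in replicates 3 and 5 and of 1760 and 2832 in replicates 2 and 4, against 172 to 252 in WT. Of 7 heat shock and stress genes tested, 4 were higher in KO and 1 was lower, with a median difference of 1.57. Their summed signal was 33095 to 41212 in KO and 37180 to 42403 in WT. Among KO arrays, Hspa1a, Ddit3 and Atf3 were also highest in replicates 3 and 5, but Hsp90aa1, Dnajb1 and Hsph1 were lowest there. Dnajb1 read 2657 and 1910 in KO replicates 3 and 5, against 3525 and 4019 in KO replicates 2 and 4. Granulocyte markers (8 genes, all tested) summed to 106181 in KO replicate 5 and to 45492 to 54352 in the other KO arrays, against 43348 to 50525 in WT. Of them 2 were called higher and none lower. Mpo was 1.02 higher (adjusted p = 5.1e-04 in limma) and Prtn3 0.78 higher (adjusted p = 0.037), each with every KO array above every WT array. The other 6 were not called, among them S100a8 and S100a9, the brightest of the list in WT. Hepatocyte markers, which define the tissue, were bright in every array, with a sum of 117524 to 146677 in KO and 179313 to 203905 in WT, and of 7 tested 1 was higher and 4 were lower. Of the other cell type markers tested, 1 of 10 for macrophages was lower and none higher, 4 of 6 for megakaryocytes and 6 of 8 for endothelium were higher and none lower, and 1 of 3 for lymphoid cells was lower and none higher. No marker was at 0 in any array.

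Of the 8 members tested on their brightest probe set, 4 were higher in KO (Stat5a, Stat5b, Cish and Socs2), 1 was lower (Epor) and 3 were not called (Jak2, Socs3 and Pim1). Of all 11275 genes tested in this way 25.5% were called higher and 21.0% lower. Epor, at the head of the pathway, was the only member that fell. The median difference over the 8 members was 0.31, against 0.06 over all genes tested. The groups did not overlap for 4 members with KO above WT and for 1 with KO below WT, where 24.4% of all genes had KO above WT in this way and 20.9% had KO below WT. Counted over probe sets, 9 of the 15 tested were higher, 1 was lower and 5 were not called, against 34.4% higher and 17.7% lower of all probe sets tested.

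**Figure D1:**
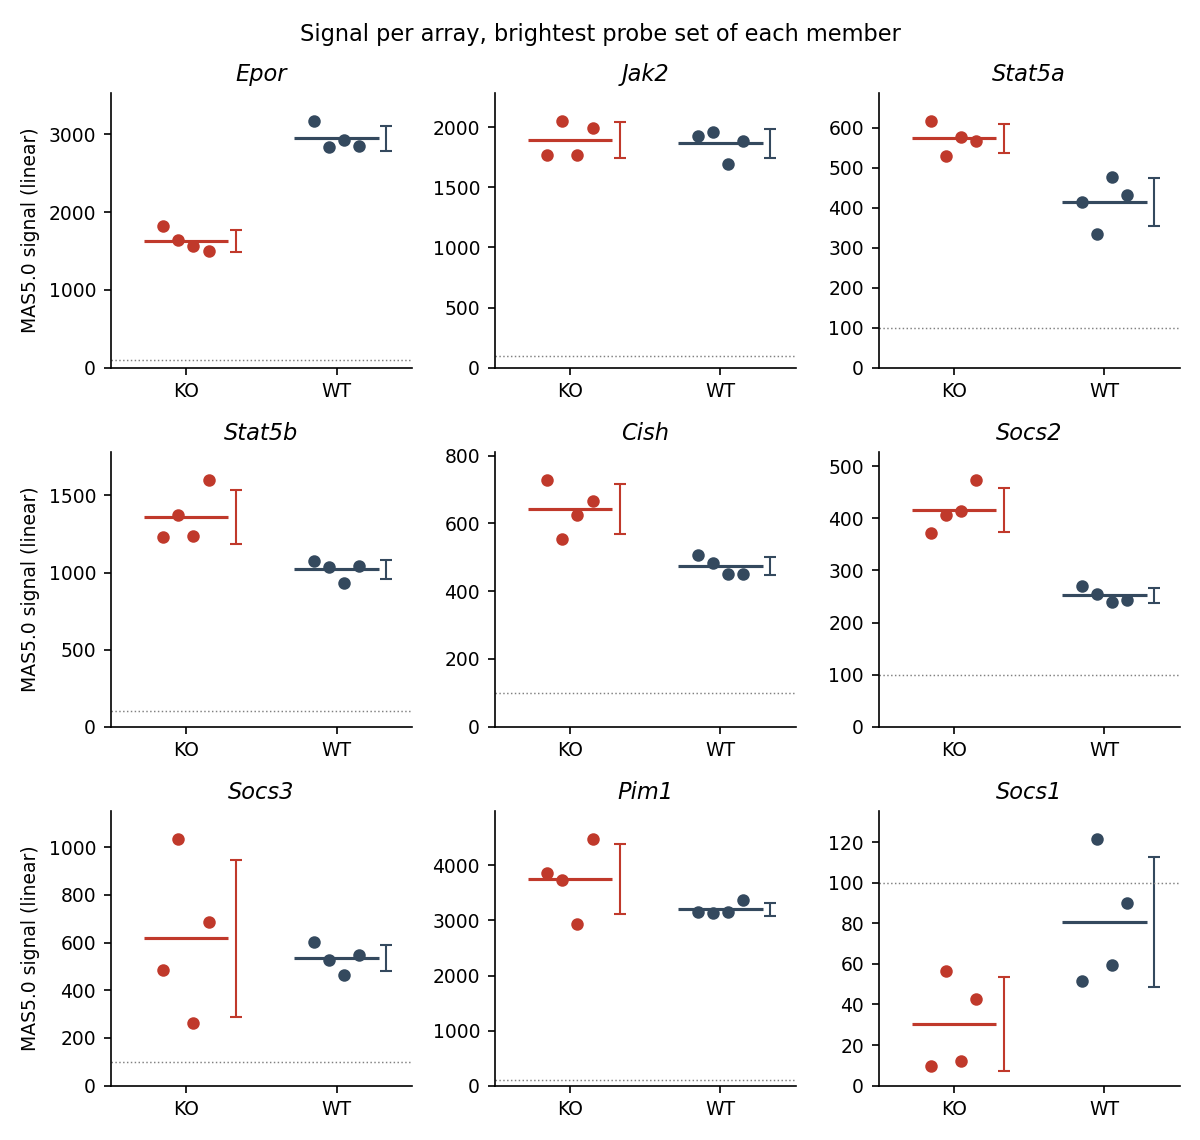
MAS5.0 signal (linear scale, from 0) of the brightest probe set of each of 9 members, with KO arrays left and WT arrays right. Points are arrays, the horizontal line is the mean, the bar beside it is 1 SD (n = 4 each), and the dotted line is a signal of 100. KO points lie below all WT points for Epor, above all of them for Stat5a, Stat5b, Cish and Socs2, and on both sides of WT values for Jak2, Socs3 and Pim1. For Socs1 only 1 array passes the dotted line.

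Epor encodes the receptor chain that binds erythropoietin. Its 1 probe set had signals of 1826, 1637, 1558 and 1501 in KO replicates 2 to 5, against 3172, 2834, 2930 and 2852 in WT replicates 1 to 4. The highest KO array was below the lowest WT array by a wide margin, and the spread within each group was small, with a ratio of highest to lowest signal of 1.22 in KO and 1.12 in WT. The difference was -0.86 (SE 0.101, 95% interval -1.09 to -0.63, adjusted p = 2.2e-04 in limma), a 1.81-fold lower signal in KO. The exact permutation test gave p = 0.029 (two-sided, 70 assignments), the smallest that 4 arrays against 4 allow. Of all genes tested, 6.47% had a lower difference than Epor. The call was kept in 24 of 25 alternatives and lost when arrays were scaled to the hybridisation controls (-0.081, adjusted p = 0.64), a scaling under which the median of all probe sets tested was 0.94.

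Erythroid cells lose the receptor late in their maturation, and markers of maturing erythroid cells also differed between the groups. Of 10 such markers listed, 8 were tested, and 7 of these were lower in KO and none higher, with a median difference of -0.97. Their summed signal was 43993 to 46123 in KO arrays and 102620 to 112147 in WT arrays. These markers include globin, membrane and heme genes, the kinds on which EKLF acts, and the part of its direct loss in their difference was not tested. Of 4 markers of erythroid progenitors tested, Kit and Cd34 were higher, Gata2 and Myb were not called, and the median difference was 0.31. In RNA of whole liver, fewer cells of a type and less RNA in each cell cannot be told apart, and the part of cell composition in the Epor difference was not tested.

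The genes whose signal followed that of Epor most closely over the 8 arrays, out of 10891 compared, were Hacd1 (Pearson r = 0.995), an enzyme of very long chain fatty acid synthesis, Nme4 (r = 0.994), a mitochondrial nucleoside diphosphate kinase, and Lin7a (r = 0.993), a scaffold protein. Hacd1 and Nme4 had differences of -1.17 and -1.41, and the KO mean of Lin7a lay below a signal of 100. The 8 points fall into a KO and a WT cluster, so that these correlations mostly repeat the difference between the groups, and they are given as a description.

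Jak2 encodes the kinase bound to the receptor tail. On its brighter probe set (1421066_at) the signals were 1769, 2052, 1765 and 1989 in KO, against 1930, 1961, 1691 and 1885 in WT. The groups overlapped throughout, with a difference of 0.02 (SE 0.103, 95% interval -0.21 to 0.25, adjusted p = 0.88 in limma). The interval leaves out a fall the size of that of Epor. The dimmer probe set (1421065_at) read 1051, 1506, 1062 and 1198 in KO, against 766, 791, 693 and 738 in WT. Here every KO array was above every WT array, and the difference was 0.67 (SE 0.134, adjusted p = 0.0031). The 2 probe sets of Jak2 thus gave different calls on the same arrays, and no direction is given for the gene. The mean over both was 0.35 higher (adjusted p = 0.026).

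Stat5a and Stat5b encode the closely related transcription factors that dock on the activated receptor. Stat5a on its brighter probe set had signals of 617, 531, 578 and 568 in KO, against 413, 333, 477 and 432 in WT. All KO arrays were above all WT arrays, and the difference was 0.48 (SE 0.128, adjusted p = 0.013 in limma). The dimmer Stat5a probe set (1450259_a_at) read 318, 329, 333 and 344 in KO, against 69.3, 114, 140 and 89.7 in WT. Since the WT mean on the log2 scale lay below a signal of 100, KO is given as at least 3.31-fold higher (adjusted p = 1.9e-04). Stat5b on its brighter probe set had 1230, 1374, 1236 and 1601 in KO, against 1076, 1035, 931 and 1044 in WT, a difference of 0.41 (SE 0.117, adjusted p = 0.017). Its dimmer probe set (1422102_a_at) read 330, 506, 455 and 503 in KO, against 217, 234, 205 and 217 in WT, and was 2.03-fold higher (adjusted p = 6.4e-04). All 4 STAT5 probe sets were therefore called higher, with the larger difference on the dimmer probe set of each gene.

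The calls on the brighter STAT5 probe sets were open to the processing. Each lost its call in 6 of 25 alternatives. Stat5a was not called after quantile normalization (adjusted p = 0.19), scaling to the 75th percentile (0.20) or to 24 poly-A control probe sets (0.16), without a filter (0.052), with the replicate block (0.11) or with KO replicates 3 and 5 alone (0.062). Stat5b was not called after scaling to the 75th percentile (adjusted p = 0.32) or to 24 poly-A control probe sets (0.15), without a filter (0.068), with the replicate block (0.14), without WT replicate 3 (0.0505) or with KO replicates 2 and 4 alone (0.064). The dimmer probe sets were called in 24 of 24 alternatives each.

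**Figure D2:**
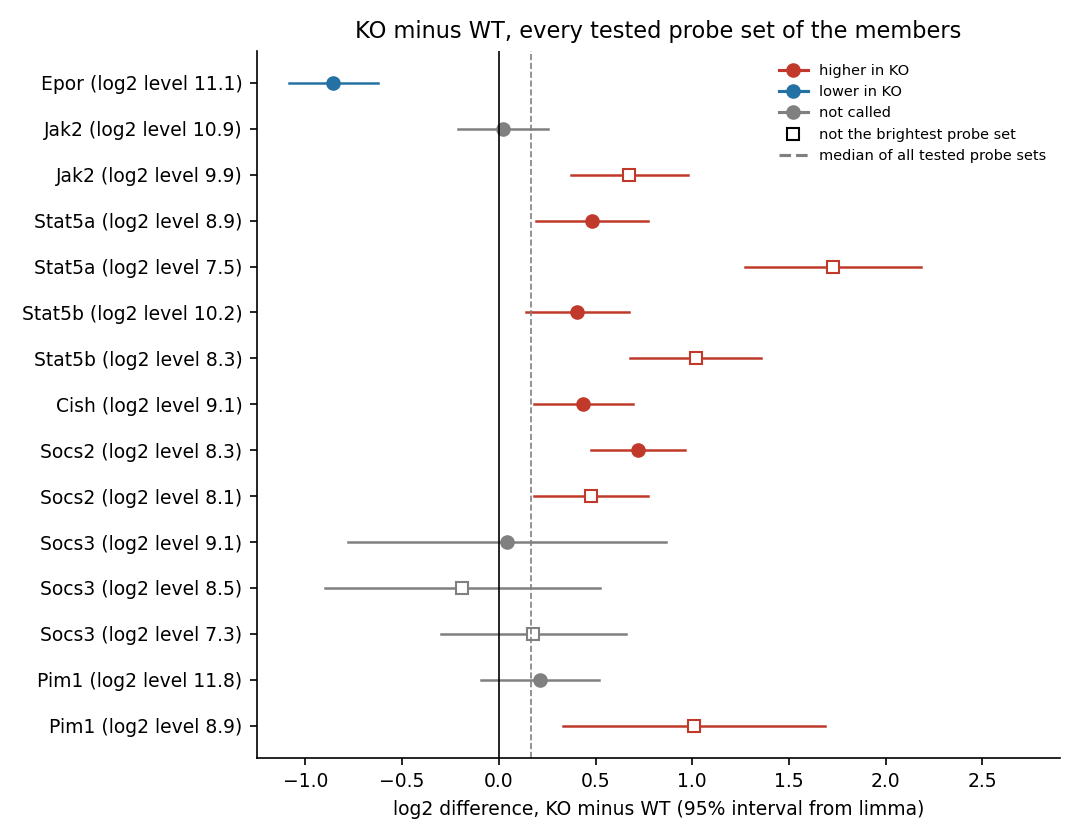
Log2 difference, KO minus WT, with its 95% interval from limma (4 arrays each) for the 15 tested probe sets of 8 members, in order of role and then of level. Filled circles are the brightest probe set of a member, open squares its other probe sets, and the dashed line is the median of all tested probe sets (0.17). Epor alone lies left of 0 with its whole interval, and the open squares of Jak2, Stat5a, Stat5b and Pim1 lie right of their filled circles.

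Differences depended on level across the whole array. Probe sets with a mean log2 level under 8 had a median difference of 0.50, those from 8 to 10 one of 0.19, and those of 10 or more one of -0.13. Of the probe sets of 10 or more, 18.8% were called higher and 33.2% lower, against 45.4% and 10.1% of those under 8. Among 5239 genes with at least 2 tested probe sets, the dimmest had the higher difference in 3598 (68.7%), by a median of 0.26 over the brightest, and in 2674 genes (51.0%) some but not all probe sets were called. Among the members, Jak2 and Pim1 had a called and an uncalled probe set. Epor and the brightest probe sets of Jak2, Stat5b and Pim1 have log2 levels over 10, while those of Stat5a, Cish, Socs2 and Socs3 lie between 8 and 10.

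Cish is a STAT5 target whose product occupies the docking sites of STAT5 on the receptor. Its 1 probe set had signals of 728, 552, 624 and 666 in KO, against 507, 483, 452 and 451 in WT. All KO arrays were above all WT arrays, though the lowest KO array (552) was close to the highest WT array (507). The difference was 0.44 (SE 0.113, 95% interval 0.18 to 0.69, adjusted p = 0.011 in limma), a 1.35-fold higher signal. Cish was called in 21 of 25 alternatives. It was not called after quantile normalization (adjusted p = 0.20) or scaling to the 75th percentile (adjusted p = 0.25). Nor was it called after scaling to 24 poly-A control probe sets (adjusted p = 0.19) or with the replicate block (adjusted p = 0.074). The genes closest to Cish over the 8 arrays were Slf2 (r = 0.982), Denn2b (r = 0.980) and Aqp11 (r = 0.978), with differences of 0.41, 0.59 and 0.74.

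Socs2 encodes a suppressor of cytokine signaling best known for its action on the growth hormone receptor. Its brightest probe set had 372, 406, 414 and 474 in KO, against 271, 254, 239 and 244 in WT. No KO array came near the WT range, and the difference was 0.72 (SE 0.107, 95% interval 0.48 to 0.96, adjusted p = 6.9e-04 in limma), a 1.65-fold higher signal. It was the only member whose brightest probe set was called in all 25 alternatives. The second tested probe set (1418507_s_at) read 309, 298, 315 and 334 in KO, against 261, 194, 198 and 256 in WT, a difference of 0.48 (adjusted p = 0.014), and was called in 17 of 24 alternatives. The other 4 Socs2 probe sets had means below 100 in both groups and were not tested, with signals of 1.9 to 97.4 in KO and 2.6 to 57.1 in WT.

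Socs1, whose product inhibits JAK kinases directly, stayed near the lower end of the range. Its 1 probe set read 9.92, 56.6, 12 and 42.6 in KO, against 51.6, 122, 59.3 and 89.8 in WT. Both group means were under 100, the groups overlapped, and no fold is given.

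Socs3, another inhibitor of JAK kinases that is also strongly induced by inflammatory cytokines, varied most among the KO arrays of the members tested on their brightest probe set. Its 2 brighter probe sets carry the suffix _x_at, which marks probes that can also match other sequences. The brightest (1455899_x_at) read 485, 1034, 262 and 688 in KO replicates 2 to 5, against 600, 527, 466 and 546 in WT. KO replicates 3 and 5 were above every WT array, KO replicate 4 was below every WT array, and the ratio of highest to lowest was 3.95 in KO and 1.29 in WT. The difference was 0.04 (SE 0.362, 95% interval -0.78 to 0.86, adjusted p = 0.93 in limma), an interval that holds changes of either direction. The second probe set (1456212_x_at) read 295, 587, 186 and 447 in KO, against 401, 377, 371 and 431 in WT, with the same order of the KO arrays (-0.19, adjusted p = 0.63). The third (1416576_at) read 189, 191, 112 and 213 in KO, against 152, 153, 124 and 181 in WT (0.18, adjusted p = 0.50). With KO replicates 3 and 5 alone against WT, the brightest probe set was 0.66 higher (adjusted p = 0.026), and with KO replicates 2 and 4 alone the difference was -0.58 (adjusted p = 0.11). These are the arrays that also differ in Hspa1b, and the part of that difference in the Socs3 values was not tested.

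Pim1 encodes the kinase that STAT5 induces and that supports survival. Its brightest probe set (1435458_at) read 3858, 3740, 2931 and 4481 in KO, against 3161, 3134, 3145 and 3375 in WT. Of the 4 KO arrays, 3 were above every WT array and KO replicate 4 was below every one, and the difference was 0.21 (SE 0.135, 95% interval -0.09 to 0.52, adjusted p = 0.21 in limma). It was 0.33 without KO replicate 4 (adjusted p = 0.036) and 0.12 without KO replicate 5 (adjusted p = 0.45), the highest and lowest values on leaving out 1 array. The mean over both Pim1 probe sets was 0.61 higher (adjusted p = 0.021). The dimmer probe set (1423006_at) read 384, 1058, 523 and 878 in KO, against 308, 304, 389 and 314 in WT. KO replicates 3 and 5 were again the highest, and KO replicate 2 lay inside the WT range. The difference was 1.01 (SE 0.298, adjusted p = 0.020), and the exact permutation test gave p = 0.057 (two-sided). Without KO replicate 5 it was 0.87 (adjusted p = 0.055 in limma), and this probe set was called in 17 of 24 alternatives.

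**Figure D3:**
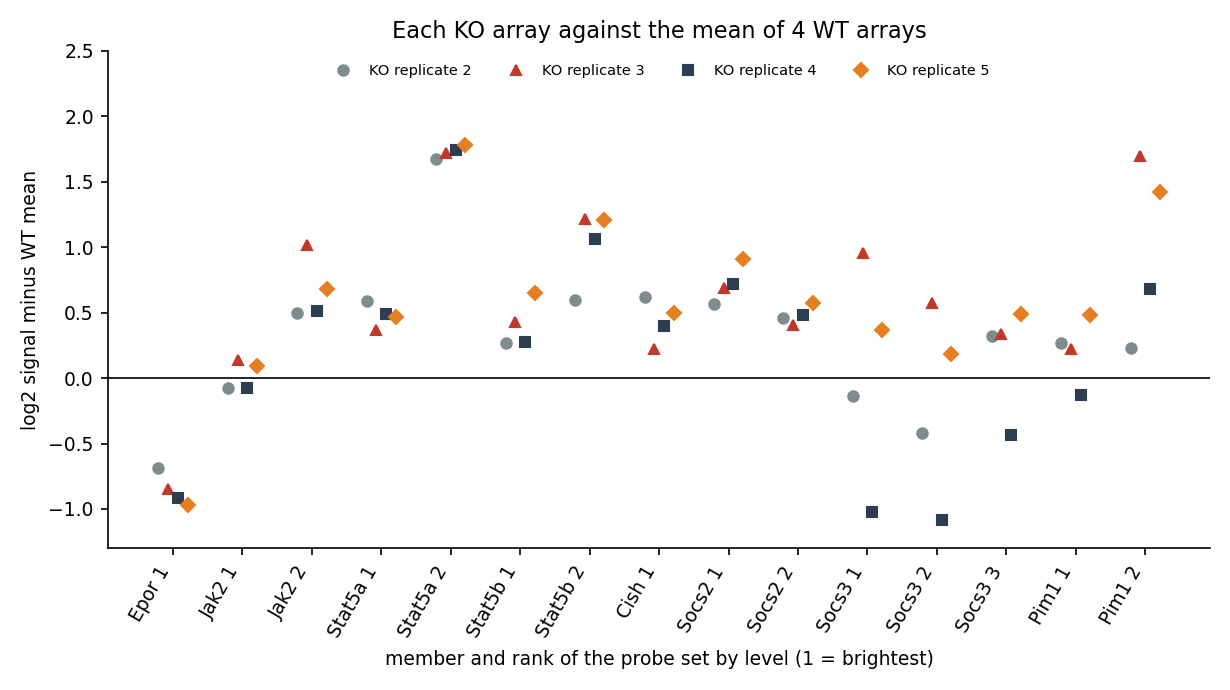
Log2 signal of each KO array minus the mean of the 4 WT arrays, for the 15 tested probe sets, numbered within a member from the brightest. Each mark shape is 1 KO array. The 4 arrays lie close together for Epor and Stat5a and spread widely for Socs3 and for the dimmer probe set of Pim1, where KO replicates 3 and 5 are the highest.

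By role, the receptor, kinase and STAT5 genes (4 tested of 5 listed) had 2 called higher, 1 called lower and a median difference of 0.21. The STAT5 target and feedback genes (4 tested of 5 listed) had 2 called higher, none lower and a median of 0.32. Both medians, each over 4 genes and not matched for level, were above that of all genes tested (0.06). The fall of Epor was set against rises of both STAT5 genes inside the first group.

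Scaling set how many members counted as higher. Over all probe sets tested, 66.0% of calls were higher in KO in the deposited scaling, 51.1% after quantile normalization, 41.9% after scaling to the 75th percentile, 85.3% and 65.7% with 15 and 24 poly-A control probe sets, and 97.1% with the hybridisation controls. The medians of all probe sets tested were 0.17, -0.0074, -0.098, 0.38, 0.082 and 0.94 in the same order. The members called higher were 4 in the deposited scaling, 2 after quantile normalization, 1 after scaling to the 75th percentile, 4 and 1 with 15 and 24 poly-A control probe sets, and 7 with the hybridisation controls. Epor was called lower in all of these but the hybridisation controls, and Socs2 was called higher in each. Jak2, Socs3 and Pim1 on their brightest probe sets turned sign in at least 1 of these scalings. The calls of Stat5a, Stat5b and Cish were each lost in at least 2 of them.

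**Figure D4:**
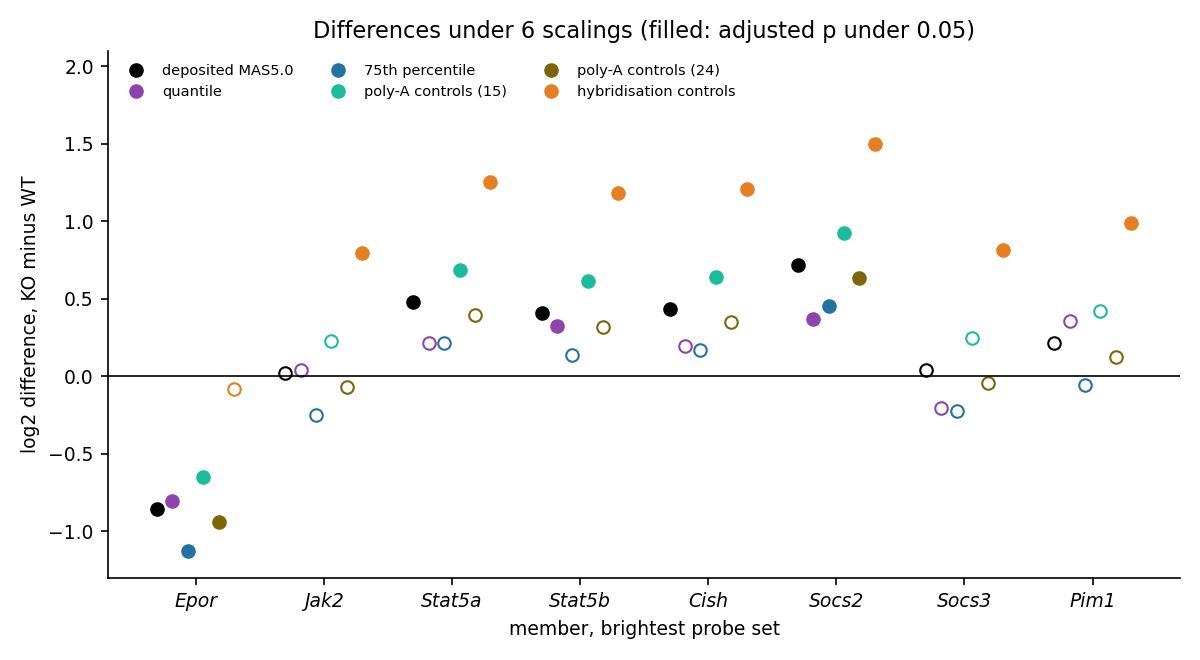
Log2 difference, KO minus WT, of the brightest probe set of 8 members under 6 ways of scaling the arrays (4 KO and 4 WT). Filled marks have an adjusted p under 0.05 in limma. Epor is negative in all 6 and open only with the hybridisation controls, Socs2 is positive and filled in all 6, and the remaining members are filled in some scalings and open in others.

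Other genes of the pathway were taken from lists of known partners and targets, and their shares are to be read against the 25.5% higher and 21.0% lower of all genes. The ligand gene Epo was not analysed here. Of 11 receptor partners, trafficking proteins and phosphatases, all tested, 4 were higher in KO, 1 was lower and the median difference was 0.39. The partners that rose include Csf2rb, the shared beta chain of the receptors for interleukin 3, interleukin 5 and GM-CSF, which read 1346, 1696, 1035 and 2265 in KO, against 891, 775, 764 and 797 in WT (0.92, adjusted p = 0.0076 in limma). Its close relative Csf2rb2 rose by 0.92 as well (adjusted p = 0.0020). Csf2rb is a myeloid gene too, and KO replicate 5, with the highest summed granulocyte markers, was its highest array. Granulocyte sums in KO replicates 2 and 4 (49969 and 45492) lay inside the WT range. In these arrays Csf2rb lay above every WT array, and so did Mpo and Prtn3, the granulocyte markers called higher. The part of granulocytes in the Csf2rb difference was not tested. Inpp5d, the inositol phosphatase SHIP1 that restrains cytokine signals in blood cells, had 1122, 1080, 1101 and 1687 in KO, against 649, 567, 545 and 531 in WT (1.10, adjusted p = 6.4e-04). Sh2b3, the adaptor LNK that dampens JAK2, was 0.53 higher (adjusted p = 0.0067). Tfr2, a transferrin receptor known to associate with the erythropoietin receptor, was the partner that fell, with 2224, 1870, 1780 and 2111 in KO, against 3724, 2978, 2731 and 2944 in WT (-0.63, adjusted p = 0.0039). In the deposited scaling, the receptor and this 1 of the 11 partners were both lower, each in every KO array. Tfr2 kept its call in 23 of 25 alternatives. It was not called with 15 poly-A control probe sets (-0.42, adjusted p = 0.091 in limma). With the hybridisation controls its sign turned (0.148, adjusted p = 0.46 in limma). The phosphatases Ptpn1, Ptpn6 and Ptpn11 and the ubiquitin ligases Rnf41, Cbl and Cblb were not called.

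Of 22 adaptors and members of the RAS-ERK and PI3K-AKT branches, 17 were tested, of which 7 were higher, 1 was lower and the median difference was 0.28. Plcg1, a phospholipase C, read 474, 509, 530 and 712 in KO, against 292, 299, 290 and 304 in WT (0.89, adjusted p = 7.9e-04 in limma). Irs2, an adaptor to PI3K, had a KO mean barely above 100 and a WT mean below it, at least 1.03-fold higher (adjusted p = 8.3e-04). Sos1 (0.69), Plcg2 (0.64), Map2k1 (0.58), Shc1 (0.46) and Pik3ca (0.40) were the other genes that rose, with calls not followed singly through the alternatives. Pik3r1, the regulatory subunit of PI3K, fell by 0.34 (adjusted p = 0.044), and kept this call in 12 of 25 alternatives.

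The 12 tested of 14 other genes known to be induced through the receptor moved in both directions, with 6 higher, 4 lower and a median of 0.32. Tfrc, the transferrin receptor that brings iron into erythroid cells, had the largest fall, with 7746, 5925, 6841 and 6984 in KO, against 22285, 22534, 23287 and 23015 in WT (-1.73, adjusted p = 8.1e-06 in limma). The survival genes Bcl2l1 (-0.59, adjusted p = 0.011) and Mcl1 (-0.46, adjusted p = 0.016) were lower, and so was the cytokine gene Osm, at least 1.06-fold against a KO mean below 100 (adjusted p = 0.040, called in 10 of 23 alternatives). Ccnd2, which encodes cyclin D2, read 3047, 2595, 3361 and 2502 in KO, against 786, 929, 1116 and 954 in WT (1.60, adjusted p = 5.1e-05). Myc (0.47, adjusted p = 0.0056) and Ccnd3 (0.26, adjusted p = 0.030) were also higher. The calls of Bcl2l1, Mcl1, Myc and Ccnd3 were not followed singly through the alternatives. Podxl, a sialomucin of progenitors, rose by 1.46 (adjusted p = 8.4e-05), and Id1, an inhibitor of basic helix-loop-helix factors, by 0.93 (adjusted p = 0.0051). Trib3, a pseudokinase also induced by stress, read 887, 2295, 773 and 2229 in KO, against 152, 187, 139 and 230 in WT (2.98, adjusted p = 3.2e-04). KO replicates 3 and 5 were the highest for Trib3, the same arrays as for Hspa1b, Socs3 and the dimmer probe set of Pim1.

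**Figure D5:**
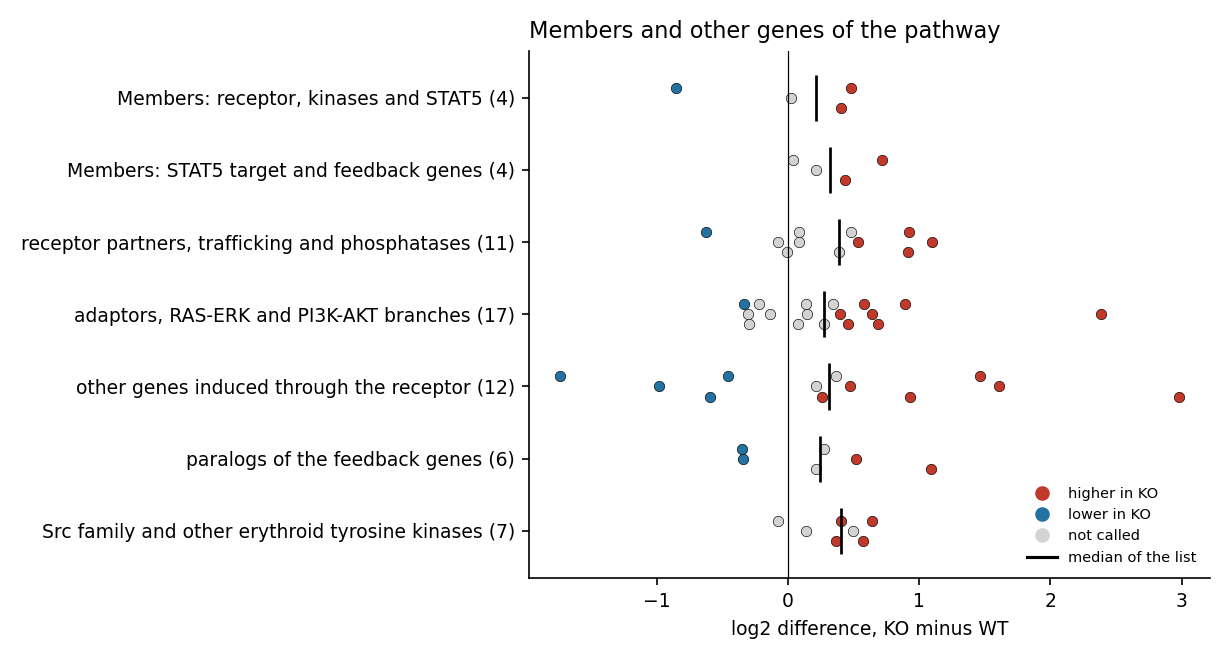
Log2 difference, KO minus WT, of the members and of the genes of 5 other pathway lists, 1 point a gene on its brightest probe set, with the number tested in brackets. Red points are called higher in KO, blue points lower and grey points not called (limma, 4 arrays each), and black lines are list medians. Irs2 and Osm stand at their measured difference although a group mean is below a signal of 100. Other genes induced through the receptor spread the widest, between Tfrc (-1.73) and Trib3 (2.98).

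Among 6 paralogs of the feedback genes, 2 were higher, 2 were lower and the median was 0.24. Pim3 read 922, 1604, 861 and 1584 in KO, against 517, 503, 633 and 597 in WT (1.09, adjusted p = 0.0040 in limma), and Pim2 was 0.52 higher (adjusted p = 0.036, called in 12 of 25 alternatives). Socs7 (-0.35, adjusted p = 0.035) and Socs4 (-0.34, adjusted p = 0.035) were lower, with calls in 12 of 25 alternatives each, and Socs5 and Socs6 were not called. Of 10 Src family and other tyrosine kinases of these cells, 7 were tested, 4 were higher and none lower, with a median of 0.40. Btk, a kinase known to act beside JAK2 in erythroid cells, was 0.64 higher (adjusted p = 0.0028), and Fyn was 0.57 higher (adjusted p = 0.0031). Src was 0.40 higher (adjusted p = 0.048) and Kit, the stem cell factor receptor, 0.37 higher (adjusted p = 0.023). The calls of Src and Kit were not followed singly through the alternatives.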

How the data were processed

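The authors isolated RNA of whole E14.5 fetal liver with Trizol and hybridized it to Affymetrix mouse arrays. The deposited values are the authors' MAS5.0 intensities for 45101 probe sets, linear and scaled to a common trimmed mean. MAS5 and R 3.0.2 appear in the submitters' processing notes, with no MAS5.0 version or genome build. No depth can be given for intensities, and the precision is set by 4 arrays in each group.

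Log2 of the intensities, with no pseudocount, was tested for 23379 probe sets with a KO or WT mean above log2 of 100. The 64 control probe sets did not enter. KO and WT were compared by limma (lmFit and eBayes, two-sided) with no term but genotype. The brightest probe set of a gene is the one with the highest mean over all 8 arrays among those whose only platform symbol is that gene. A fold is a lower limit, computed against 100, where the dimmer group's mean was below 100. Exact permutation over 70 assignments was run for single probe sets. The members, gene lists, named genes, tests and alternatives were chosen with earlier results of these data known. Named were every member, Klf1, called genes of the pathway lists with at least the 2 largest rises and 2 largest falls in each, and the 3 genes closest to Epor and to Cish by Pearson correlation. Hspa1b, the uncalled pathway genes and the named markers were picked with their values in view. Results were recomputed with other scalings (quantile, 75th percentile, 9 hybridisation or 15 poly-A control probe sets), pseudocounts of 16 and 64, other filters, limma's trend and robust options, the methods' t-test, the replicate number as a block, arrays left out, and a mean over probe sets. Scaling to 24 poly-A control probe sets, with the Trpn controls left out, was added after seeing the data. The fit was first tested on simulated intensities. Software was R 4.3.3, limma 3.58.1, Python 3.11.15, pandas 2.3.3 and numpy 2.4.6. Promoters came from RefSeq (GRCm38.p6), matched by symbol.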

Additional observations from a re-analysis of the deposited data

Results flagged for a closer look

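Of 30 groups of 4 arrays examined, 2 were flagged because 1 array lay far from the others relative to the range of its group. Chance gives about 1 in 20, and this share is close to that. Both groups were the WT arrays on a Pim1 probe set. On the brightest probe set (1435458_at) WT replicate 4 read 3375, against 3134 to 3161 in the other WT arrays, a gap of 0.887 of the WT range. On the dimmer probe set (1423006_at) WT replicate 3 read 389, against 304 to 314 in the other WT arrays, a gap of 0.861 of the WT range. Different arrays stood out on the 2 probe sets. The ratio of highest to lowest WT signal was only 1.08 on the brightest probe set and 1.28 on the dimmer.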

How the results depend on the processing

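Among the members, the count of 4 called higher became 2 after quantile normalization, 1 after scaling to the 75th percentile, 1 with 24 poly-A control probe sets, 2 without a filter, 7 with the hybridisation controls and 6 with the mean over tested probe sets (Jak2 and Pim1 added), and the count of 1 called lower became 0 with the hybridisation controls. Leaving out 1 array gave 3 to 5 members higher and 1 lower. With the replicate number as a block, over replicates 2 to 4, 1 member was higher (Socs2, 0.69, adjusted p = 0.023) and 1 was lower (Epor, -0.78, adjusted p = 0.017). The numbers are not known to pair embryos, and the deviations of same-numbered arrays from their group means correlated at -0.00084, -0.082 and -0.027.

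Followed singly through the alternatives were the tested probe sets of the members and up to the 2 largest rises and 2 largest falls of each pathway list. Other called genes of the lists were not followed, and their sign may turn as well. Among those followed, the sign turned in the following cases, and the cause was not tested. Jak2 on its brightest probe set was -0.247 with the 75th percentile, -0.0664 with 24 poly-A control probe sets, -0.0767 with KO replicates 2 and 4 alone, and -0.0269 to 0.0526 leaving out 1 array. Socs3 on its brightest was -0.203 with quantile normalization, -0.226 with the 75th percentile, -0.0447 with 24 poly-A control probe sets, -0.00989 with the replicate block, -0.58 with KO replicates 2 and 4 alone, and -0.264 to 0.397 leaving out 1 array. Socs3 on 1456212_x_at was 0.587 with the hybridisation controls, 0.0188 with 15 poly-A control probe sets, 0.377 with KO replicates 3 and 5 alone, and -0.443 to 0.111 leaving out 1 array. Socs3 on 1416576_at was -0.274 with quantile normalization, -0.088 with the 75th percentile and -0.0548 with KO replicates 2 and 4 alone. Pim1 on its brightest was -0.0546 with the 75th percentile. The hybridisation controls gave 0.148 for Tfr2, 0.44 for Pik3r1, 0.424 for Socs7 and 0.433 for Socs4, and a mean over probe sets gave 0.181 for Socs7.

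Over all alternatives, the counts higher and lower in KO ran from 3 to 10 and 0 to 2 for receptor partners (4 and 1 as reported), 4 to 15 and 0 to 5 for adaptors (7 and 1), 4 to 8 and 1 to 4 for other induced genes (6 and 4), 1 to 6 and 0 to 2 for paralogs (2 and 2), and 0 to 7 and 0 to 0 for tyrosine kinases (4 and 0).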
